A study of Mus musculus with 6 samples.

Results

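Contacts between the constant genes of the mouse immunoglobulin heavy chain (Igh) locus and its proximal and middle V segments were measured by 5C in 3 cell types with 2 libraries each. In 5C, a forward (FOR) and a reverse (REV) primer anneal to the junction of 2 HindIII fragments that were ligated in a crosslinked nucleus, and a pair's count gives how often its ligated product was sequenced. Of the 12656 forward-reverse pairs within Igh, the 874 described here had the midpoint of one fragment in the constant genes (chr12:114486613-114656272, build mm9) and that of the other in the proximal or middle V segments (chr12:114809751-115709849). They joined 25 constant fragments to 19 proximal V fragments (chr12:114809751-115096374, 237 pairs) and to 51 middle V fragments (chr12:115139357-115709849, 637 pairs). The members were defined by position and not by read count, with earlier results of these data known. Fragments are named by primer and number, and the pairs share them: each constant fragment entered up to 35 tested pairs, so that pairs are not independent observations of a cell type.

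The groups were murine embryonic fibroblasts (MEF), taken straight from culture; bone marrow pro-B cells deficient in Rag2, expanded in IL7 for 4 days; and resting B cells negative for CD43, isolated from spleen with MACS beads. Only the pro-B cells were labelled Rag2-deficient; strain, sex and age were not given in the sources used here, and neither was the number of animals behind a library. The series' design text calls the replicates biological. The labelled cell types could not be checked against marker genes, because 5C counts hold no expression values.

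The heavy chain locus holds a long array of V segments, then D and J segments, then the constant genes at its 3′ end. RefSeq's gene order for this chromosome (assembly GRCm38.p6, used for names and order only) gives the 8 constant genes from the J side as Ighm, Ighd, Ighg3, Ighg1, Ighg2b, Ighg2c, Ighe and Igha. V(D)J recombination, which needs the Rag2 protein, joins a V segment to a D-J unit upstream of Ighm, so Rag2-deficient pro-B cells carry the unrearranged locus and resting B cells carry rearranged alleles. Class switching later replaces Ighm by a downstream constant gene, and an enhancer cluster past Igha, the 3′ regulatory region, acts on these genes. Long-range folding of this locus is known from B-lineage cells, where V segments spread over a long stretch come near the D-J end. The fragments could not be assigned to single constant genes or V segments here, and are given by mm9 coordinates.

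Each library held between 20580457 and 24191175 valid primer pairs, and the 874 members took 0.889% and 1.61% of the Igh reads in the pro-B libraries (replicates 1 and 2), 1.08% and 1.56% in MEF and, in resting B cells, 2.03% and 1.99%. The share was highest in both resting B libraries, while the pro-B and MEF libraries overlapped. Pro-B replicate 2 stood apart: 113 members (12.9%) had no read there, against 19 to 35 in the other 5 libraries, and the same held for all Igh pairs (13% against 2.97% to 4.91%). Replicates correlated across the 874 pairs with Pearson's r of log2 CPM (reads scaled to a common library size) of 0.754 in pro-B, 0.925 in MEF and 0.950 in resting B cells, a description over pairs that share fragments and depth. All member reads were spread unevenly, since the 10 richest pairs of each library held 24.4% to 37.2% of them. Counts were compared with edgeR's quasi-likelihood test fitted to all 6 libraries and all 11940 Igh pairs that reached 10 reads in 2 or more libraries, with Benjamini-Hochberg adjustment over that table and a threshold of 0.05. Of the members 834 were tested, and the other 40 were left out for low counts. CPM are counts divided by the library's TMM-scaled reads within chromosomes (TMM, a trimmed mean of ratios between libraries), and all folds are log2 with their standard error (SE).

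Contact frequency of the members fell with distance up to about 1000 kb and not beyond. For the 137 pairs less than 400 kb apart, the median level was 8.50 and 9.81 CPM in pro-B, 10.7 and 12.3 CPM in MEF, and 12.4 and 13.1 CPM in resting B cells. For the 289 pairs between 700 and 1000 kb it was 2.28 and 2.38 CPM in pro-B, 3.57 and 3.21 CPM in MEF, and 3.69 and 4.12 CPM in resting B cells. The 263 pairs over 1000 kb apart, which lie in the far end of the middle V segments, had median levels of 2.51 and 3.31 CPM in pro-B, 3.80 and 3.90 CPM in MEF, and 5.87 and 5.83 CPM in resting B cells. In every library the median of this longest class was above that of the class before it, and it was highest in both resting B libraries. In the 185 pairs between 400 and 700 kb the order differed: both MEF libraries (9.47 and 9.19 CPM) were above both resting B libraries (7.25 and 8.15 CPM), and the pro-B libraries were lowest (5.71 and 6.29 CPM). The classes hold different fragments, whose own primer efficiencies differ. All separations, here and below, are those of the mm9 map, which the rearranged alleles of resting B cells need not keep. The part of rearrangement in these levels was not tested.

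**Figure D1:**
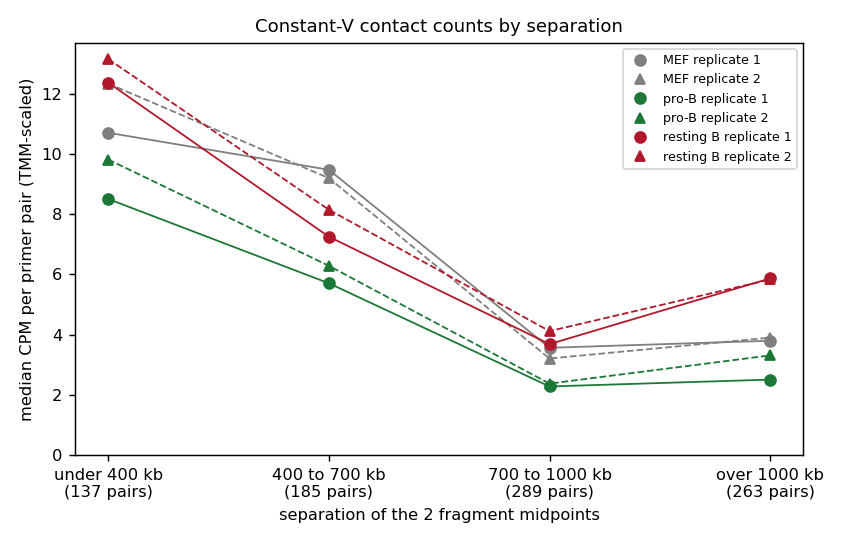
Median CPM of the member pairs (vertical axis, linear) in 4 classes of separation in kb (horizontal axis), 1 line per library, coloured by cell type. Both resting B libraries are highest over 1000 kb (5.87 and 5.83 CPM), and both MEF libraries are highest between 400 and 700 kb.

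Against the distance trend of all Igh pairs in the same library, the members as a class were above the trend in 5 of 6 libraries. The median log2 ratio of observed to trend was -0.10 and 0.24 in pro-B, 0.38 and 0.34 in MEF and, in resting B cells, 0.62 and 0.66. The proximal V pairs were further above it than the middle V pairs in every library: 0.36 and 0.66 against -0.23 and 0.10 in pro-B, 0.81 and 0.78 against 0.25 and 0.23 in MEF, and 0.92 and 0.94 against 0.52 and 0.53 in resting B cells. The 3′ zone of the constant genes with proximal V, defined in the zone comparison, had the highest medians of the 9 zone pairs in all 6 libraries, from 0.60 in pro-B replicate 1 to 1.74 in resting B replicate 2.

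The pairs with the most reads were those of FOR 126, at the constant-gene end of the proximal V segments, and isolated pairs of other fragments. FOR 126 also had many reads with the gene desert on chromosome 5, a control region in the same libraries. There it had 5310 and 38221 reads in pro-B, 12475 and 11451 in MEF and, in resting B cells, 25754 and 28939. REV 33, a partner named below, had 539 and 3953, 1197 and 1252, and 3794 and 4333 in the same order. Whether the counts of FOR 126 reflect contacts with the constant genes was not tested. FOR 126 (chr12:114823610-114829182, proximal V) with REV 44 (chr12:114539129-114547720, constant), 283 kb apart, gave 14336 and 27253 reads in pro-B, 11533 and 15740 in MEF and, in resting B cells, 18473 and 21506. FOR 126 with REV 33 (chr12:114486613-114491122), the 3′-most constant fragment and 338 kb away, gave 11130 and 16604 reads in pro-B, 11483 and 13882 in MEF and, in resting B cells, 23426 and 28261. These pairs were among the 3 highest by mean CPM in every cell type, though not above FOR 34 with REV 181 in MEF, and neither passed the test in any comparison (for FOR 126 with REV 33, resting B over MEF, log2 fold 0.96 ± 0.38, adjusted p = 0.208). The remaining pair of the 3 differed between cell types. In resting B cells it was FOR 126 with REV 37 (chr12:114501531-114502799), with 13714 and 10817 reads against 1601 and 7558 in pro-B and 2949 and 4076 in MEF; both resting B libraries were above the other 4, and the test was not passed (adjusted p = 0.167 over pro-B and 0.163 over MEF).

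The other 2 of the most frequent pairs stood far above their distance. FOR 34 (chr12:114491123-114493851) with REV 181 (chr12:115048372-115052571, proximal V), 558 kb apart, gave 4265 and 14463 reads in pro-B, 23232 and 8970 in MEF and, in resting B cells, 4947 and 4892. FOR 329 (chr12:115586578-115589686, middle V) with REV 41 (chr12:114528706-114531105), 1058 kb apart, gave 4449 and 14639 reads in pro-B, 12761 and 5789 in MEF and, in resting B cells, 1914 and 1687. Replicates of pro-B and of MEF differed by more than 2-fold for both pairs, in opposite directions, while the resting B replicates were close. Both resting B libraries were below the other 4 for FOR 329 with REV 41, without passing the test (-2.47 ± 0.70 against pro-B, adjusted p = 0.0719; -2.60 ± 0.70 against MEF, adjusted p = 0.108).

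These pairs also met the rule for looping interactions, and whether their counts reflect contacts was not tested. A loop was a pair over 50 kb apart whose standardised residual from a quasi-Poisson model of counts, with separation and both primers as terms, was at least 2 in both replicates, following the design text's demand that a loop appear in both. Of the 874 members, 2 passed in pro-B (0.229%, against 0.465% of all Igh pairs), 2 in MEF (0.229% against 0.449%) and 3 in resting B cells (0.343% against 0.773%). FOR 34 with REV 181 and FOR 329 with REV 41 passed in all 3 cell types. The residuals of FOR 34 with REV 181 were 7.07 and 13.9 in pro-B, 21.3 and 14.0 in MEF and, in resting B cells, 7.06 and 7.44. The residuals of FOR 329 with REV 41 were 11.7 and 15.0 in pro-B, 19.8 and 11.2 in MEF and, in resting B cells, 3.06 and 2.56. The remaining loop, called in resting B cells, was FOR 40 (chr12:114522182-114528705) with REV 274, 842 kb apart, with residuals of 4.72 and 5.81 there, 1.83 and 4.21 in pro-B, and 3.51 and 1.68 in MEF. One replicate of each of the other cell types was also above 2, and the difference between cell types in this residual was not tested.

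Summed over all pairs, neither the proximal nor the middle V pairs differed between cell types past the threshold. The constant-proximal V sum was 6572 and 8856 CPM in pro-B, 8374 and 7221 CPM in MEF, and 10466 and 11078 CPM in resting B cells. Resting B cells were above both other cell types in both libraries, by 0.47 ± 0.25 over MEF (adjusted p = 0.131) and 0.48 ± 0.25 over pro-B (adjusted p = 0.123). The constant-middle V sum was 3882 and 5404 CPM in pro-B, 5524 and 4849 CPM in MEF, and 5775 and 6422 CPM in resting B cells, with resting B cells again highest, by 0.23 ± 0.25 over MEF (adjusted p = 0.434) and 0.39 ± 0.25 over pro-B (adjusted p = 0.198). Pro-B and MEF overlapped in both sums, at -0.02 ± 0.25 (adjusted p = 0.97) and -0.16 ± 0.25 (adjusted p = 0.769). Of the 55 region sums tested, 32.7% were called higher and 16.4% lower in resting B cells than in MEF, and 20% higher and 21.8% lower than in pro-B. The pro-B over MEF calls were 9.09% higher and 0% lower.

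With the V segments beyond, the sums of the same constant fragments passed the threshold in resting B cells. Constant with near distal V rose in resting B cells by 1.04 ± 0.31 over MEF (adjusted p = 0.0255) and 0.89 ± 0.31 over pro-B (adjusted p = 0.0453), and constant with far distal V by 1.21 ± 0.24 (adjusted p = 0.00494) and 1.52 ± 0.24 (adjusted p = 0.0035). The difference between these folds and those of the nearer V segments was not tested, and the distal sums were not run under the alternatives to the processing. D-J fragments with the same proximal and middle V segments did not pass in resting B cells over pro-B either, at 0.50 ± 0.23 (adjusted p = 0.0916) and 0.62 ± 0.24 (adjusted p = 0.056).

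By zone, the 3′ and 5′ ends of the constant genes had positive resting B over pro-B folds and their middle had folds near 0. The constant genes were cut into 3 zones of 52.5, 62.3 and 54.9 kb, with 10, 6 and 9 fragments, and middle V was cut into a near zone of 18 and a far zone of 33 fragments. The 3′ zone (chr12:114486613-114539128) with proximal V had 2703 and 3996 CPM in pro-B, 4355 and 3260 CPM in MEF, and 5506 and 5864 CPM in resting B cells. Resting B cells were above both other cell types in both libraries, by 0.76 ± 0.26 over pro-B (adjusted p = 0.0514) and 0.58 ± 0.25 over MEF (adjusted p = 0.0959). The 3′ zone with near middle V had 702 and 1068 CPM in pro-B, 1131 and 1144 CPM in MEF, and 1357 and 1541 CPM in resting B cells, which were again highest in both libraries (0.71 ± 0.24 over pro-B, adjusted p = 0.0516).

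The middle zone of the constant genes (chr12:114539129-114601396) was nearly level across cell types in summed reads. With proximal V it had 2336 and 2506 CPM in pro-B, 2170 and 1957 CPM in MEF, and 2320 and 2474 CPM in resting B cells, and the resting B over pro-B fold was -0.01 ± 0.16 (adjusted p = 0.943). With near middle V it had 801 and 793 CPM in pro-B, 891 and 754 CPM in MEF, and 664 and 709 CPM in resting B cells, so that resting B cells were lowest in both libraries (-0.22 ± 0.19 against pro-B, adjusted p = 0.353). The middle zone's sums held fragments of opposite folds. In resting B over pro-B the median over member pairs was 1.44 for REV 48 and -1.16 for FOR 49. FOR 126 with REV 44 alone gave 818 and 1158 CPM of the proximal V sum in pro-B. It gave 674 and 574 CPM in MEF, and 774 and 995 CPM in resting B cells. The 5′ zone (chr12:114601397-114656272) with far middle V had 381 and 634 CPM in pro-B, 553 and 551 CPM in MEF, and 813 and 844 CPM in resting B cells (0.71 ± 0.28 over pro-B, adjusted p = 0.0699). None of the 27 zone folds of the class passed, against 19.8% higher and 20.9% lower among all 91 zone sums in resting B over pro-B, 28.6% and 8.79% in resting B over MEF, and 11% and 0% in pro-B over MEF. Differences between zones were not tested. Of the 27 folds 18 kept their sign in all 10 alternatives, and 13 passed the test in at least 1 of them.

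**Figure D2:**
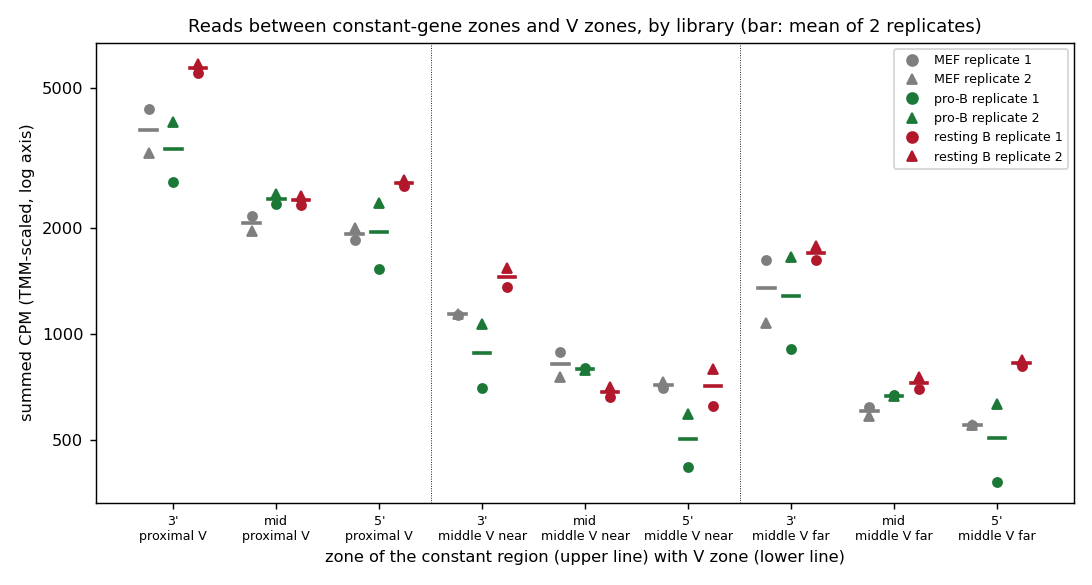
Summed CPM (vertical axis, log scale) of each of the 9 zone pairs of constant genes and V segments, 1 point per library with bars at the means, coloured by cell type. Both resting B points are highest for the 3′ zone with proximal V (5506 and 5864 CPM), and the points nearly coincide for the middle zone with proximal V (1957 to 2506 CPM).

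Taking each tested pair once, the typical member was lower in pro-B cells than in MEF and higher in resting B cells than in either. The median log2 fold of the 834 members was -0.39 in pro-B over MEF (0.03 for all Igh pairs), 0.28 in resting B over MEF (-0.02) and 0.63 in resting B over pro-B (0.01). The shares of members below 0 were 62.9%, 40.8% and 30.6%. The median kept its sign in all 14 alternatives to the processing but not its size: it ranged from -0.55 to -0.025 in pro-B over MEF, nearest 0 after the distance offset, from 0.20 to 0.72 in resting B over MEF, and from 0.42 to 0.89 in resting B over pro-B. The median of members minus that of all Igh pairs ranged from -0.47 to -0.27, from 0.23 to 0.47 and from 0.41 to 0.88. Proximal and middle V pairs had close medians in pro-B over MEF (-0.37 and -0.41), and middle V pairs the higher ones in resting B over MEF (0.08 and 0.31) and over pro-B (0.52 and 0.71). Constant with near and far distal V had medians of -0.25 and -0.46 in pro-B over MEF. For resting B cells they were 1.00 and 0.85 over MEF and 1.20 and 1.32 over pro-B. D-J with proximal and middle V had -0.69 and -0.39 in pro-B over MEF. For resting B cells these were -0.29 and 0.07 over MEF and 0.44 and 0.35 over pro-B. The members thus shared their signs with these classes, except D-J with proximal V in resting B over MEF. The comparisons share libraries, so these medians are not independent of one another. The gene desert on chromosome 5, a control region in the same libraries, moved too, with medians of -0.83, -0.38 and 0.37 over its 220 tested pairs; the part of such shifts in the members' medians was not tested.

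Over pro-B cells, the zones kept much the same pattern when pairs were counted once. For resting B over pro-B the median was 0.82 for the 3′ zone with proximal V, 0.74 with near middle V and 0.89 with far middle V. It was 0.49, 0.53 and 0.78 for the 5′ zone, and -0.02, 0.00 and 0.11 for the middle zone. Against MEF, the middle zone had negative medians with proximal V (-0.44) and near middle V (-0.41), where the 3′ zone had 0.44 and 0.29. For the middle zone with proximal V the summed reads went the other way, at 0.22 ± 0.16 over MEF (adjusted p = 0.283). In that sum both resting B libraries were above both MEF libraries.

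**Figure D3:**
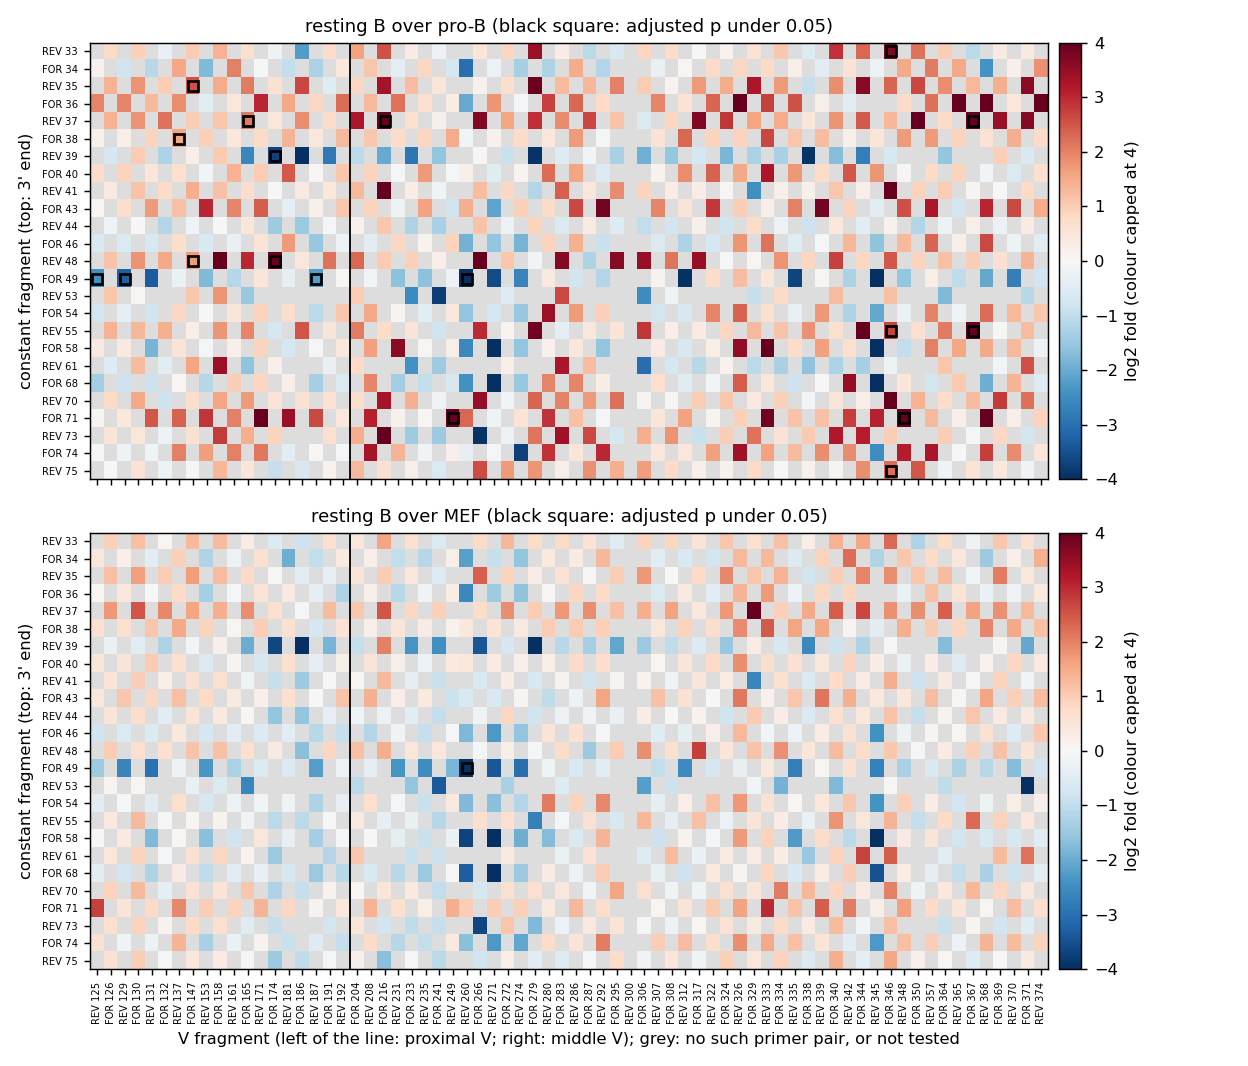
Log2 fold of each tested member pair in resting B over pro-B (top) and over MEF (bottom), with constant fragments as rows from the 3′ end down and V fragments as columns, from blue (lower) to red (higher), grey where no pair was tested, and black squares where the test was passed. In the top panel most rows are red, and those of FOR 49 and REV 39 are mostly blue, with medians of -1.16 and -1.31.

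Few single pairs passed the test. With edgeR no member was called in pro-B over MEF (0% higher and 0% lower, as among all Igh pairs). At an unadjusted p under 0.05 there were 49 of 834 members, against 1094 of 11940 Igh pairs. DESeq2 called 2 members higher and 10 lower (1.40% and 1.17% of all Igh pairs). Both pro-B libraries lay below both MEF libraries for 289 members (34.7%, against 22.8% of all Igh pairs) and above them for 61 (7.31% against 19.3%). Against MEF, no member was called higher in resting B cells (0.369% of all Igh pairs) and 1 was called lower (0.12% against 0.385%). In this comparison 74 of 834 members had an unadjusted p under 0.05 in either direction, against 2501 of 11940 Igh pairs. DESeq2 called 20 members higher and 18 lower, against 6.39% and 7.46% of all Igh pairs. Both resting B libraries lay above both MEF libraries for 315 members (37.8% against 33.9%) and below them for 196 (23.5% against 35.9%). Against pro-B cells, 13 members were called higher (1.56% against 2.74%) and 5 lower (0.6% against 5.16%). There the libraries lay apart for 368 members in the higher direction (44.1% against 33%) and for 117 in the lower (14% against 29%). With edgeR the called shares were thus at or below those of all Igh pairs. In pro-B over MEF and resting B over pro-B, members lay apart more often than Igh pairs in the direction of the members' median. In resting B over MEF the 2 shares were close (37.8% and 33.9%). That direction comes from the same libraries, so these shares are not separate evidence of it.

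The counts of called pairs depended on single libraries and on scaling. For resting B over pro-B no member was called without MEF replicate 1, MEF replicate 2, resting B replicate 1 or resting B replicate 2, where no Igh pair at all was called, while leaving out pro-B replicate 1 gave 260 higher and 59 lower calls (28.3% and 18.8% of all Igh pairs) and leaving out pro-B replicate 2 gave 138 and 36 (15.2% and 17.3%). With gene desert reads as library size, 20 were higher and 2 lower (3.82% and 2.92% of all Igh pairs), among them 8 of the 13 rises and 1 of the 5 falls. With total reads 15 were higher and 2 lower (3.48% and 3.40%), among them 9 of the 13 rises and 1 of the 5 falls. The fall called under both was FOR 49 with REV 260, and the other 4 falls were not called under either. In resting B over MEF, leaving out pro-B replicate 1 or 2 gave 69 higher calls each and 40 or 42 lower, against 13.7% or 13.8% and 14.3% or 14.7% of all Igh pairs.

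The 13 pairs that rose in resting B over pro-B used 17 fragments, of which 10 occurred once and none more than 3 times. FOR 147 (chr12:114897147-114900764, proximal V) with REV 35 (chr12:114493852-114496828), 404 kb apart, had 812 and 642 reads in pro-B, 1305 and 1626 in MEF and, in resting B cells, 4904 and 4865. Both resting B libraries were above the other 4, and the fold over pro-B was 2.55 ± 0.42 (adjusted p = 0.0272). REV 35 also met the gene desert more often in resting B over pro-B (1.73 ± 0.50, adjusted p = 0.0465). FOR 147 had a gene desert fold of -1.02 ± 0.39 (adjusted p = 0.0928). The part of either in this fold was not tested. FOR 346 (chr12:115628291-115630212, middle V) with REV 33, 1140 kb apart, had 211 and 47 reads in pro-B, 323 and 516 in MEF and, in resting B cells, 1975 and 2148. Here too the resting B libraries were above the other 4, by 3.70 ± 0.82 over pro-B (adjusted p = 0.0421), and the gene desert folds of its fragments were 0.14 and 0.40.

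The other named rises started from few reads in pro-B cells. FOR 216 (chr12:115163800-115166576) with REV 37, 663 kb apart, had no read in either pro-B library, 28 and 16 in MEF and, in resting B cells, 90 and 192, which was at least 42.4-fold higher in resting B cells than a floor of 3 reads per pro-B library. FOR 367 (chr12:115693734-115694885) with REV 55 (chr12:114601397-114612029) had 2 and 0 reads in pro-B, 20 and 73 in MEF and, in resting B cells, 213 and 209 (7.33 ± 1.46 over pro-B, adjusted p = 0.035). REV 55 rose with the gene desert as well, by 2.39 ± 0.45 (adjusted p = 0.00803), while FOR 367 had a fold of -1.47 ± 0.59 there (adjusted p = 0.106). The gene desert folds of FOR 216 and REV 37 were 1.69 and 0.94, neither past the threshold. The part of these folds in the rises was not tested. FOR 71 (chr12:114649352-114649657), the shortest fragment named here at 0.306 kb, had 2 and 4 reads with REV 348 (chr12:115632508-115636437) in pro-B, 26 and 54 in MEF and, in resting B cells, 88 and 157 (5.20 ± 1.08, adjusted p = 0.0364). The gene desert folds of FOR 71 and REV 348 were 0.18 and -1.11, neither past the threshold.

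FOR 174 (chr12:115011448-115018809, proximal V) was called in both directions, with different constant partners. With REV 48 (chr12:114558042-114559615) it had 12 and 9 reads in pro-B, 114 and 172 in MEF and, in resting B cells, 187 and 189, which was 3.95 ± 0.83 above pro-B (adjusted p = 0.0366). With REV 39 (chr12:114510165-114522181) it had 163 and 125 reads in pro-B, 139 and 160 in MEF and, in resting B cells, 13 and 12, for a fold of -3.72 ± 0.84 (adjusted p = 0.0439). The gene desert fold of FOR 174 was -1.21 in the same comparison, that of REV 48 was 1.44 and that of REV 39 was -0.22, none past the threshold.

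The remaining 7 called rises fell outside the naming rule, which used each fragment once per direction, and are named after their values were seen. They were FOR 38 with REV 137, FOR 71 with REV 249, FOR 147 with REV 48, FOR 165 with REV 37, FOR 346 with REV 55, FOR 346 with REV 75 and FOR 367 with REV 37. Leaving out FOR 367 with REV 37, their folds ranged from 1.57 ± 0.36 (FOR 38 with REV 137, with 637 and 1063 reads in pro-B and 2701 and 2773 in resting B cells) to 6.40 ± 1.47 (FOR 71 with REV 249, with 0 and 4 against 259 and 118). FOR 367 with REV 37 had no read in either pro-B library and 68 and 53 in resting B cells, which was at least 17.8-fold higher than the same floor. REV 37 took part in 3 of the 13 rises and FOR 346 in 3.

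**Figure D4:**
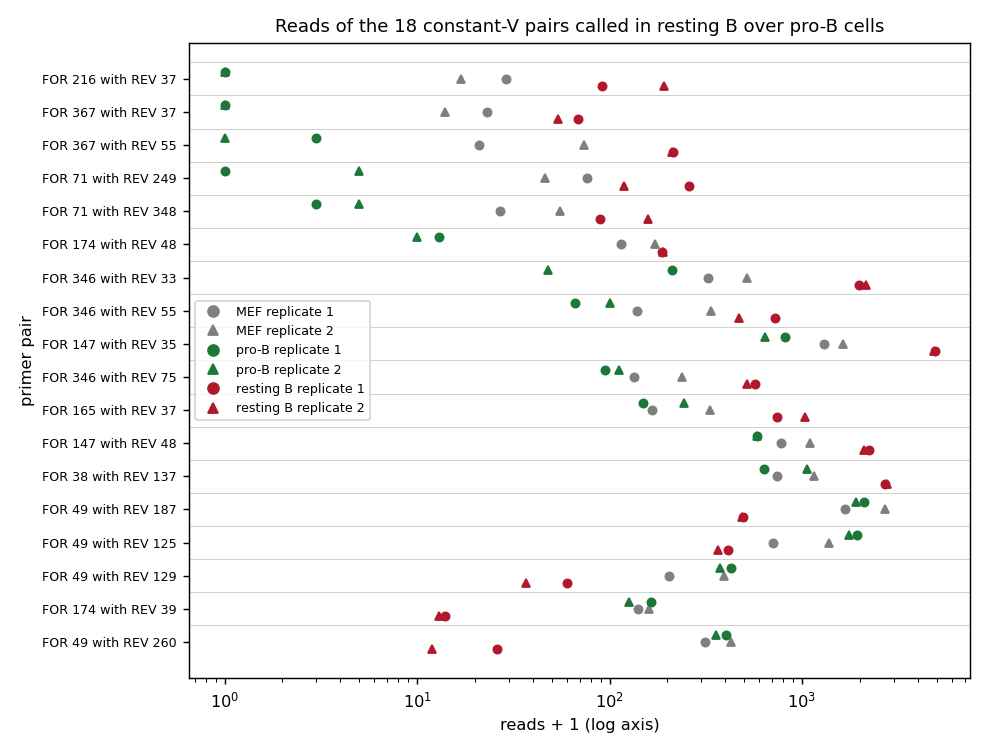
Reads plus 1 (horizontal axis, log scale) of the 18 member pairs called in resting B over pro-B, 1 row per pair and 1 point per library, coloured by cell type with a symbol per replicate. For FOR 49 with REV 260 the resting B points lie far left (25 and 11 reads), and for FOR 147 with REV 35 far right (4904 and 4865 reads).

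Of the 5 falls, 4 shared a single constant fragment, FOR 49 (chr12:114559616-114579798), which at 20.2 kb was the longest constant fragment. With REV 260 (chr12:115327864-115330485, middle V, 759 kb away) it had 403 and 356 reads in pro-B, 311 and 425 in MEF and, in resting B cells, 25 and 11. This was the only member called in resting B over MEF (-4.42 ± 0.68, adjusted p = 0.0467) and its fold against pro-B was -4.60 ± 0.69 (adjusted p = 0.0217). The gene desert fold of REV 260 was -1.28 ± 0.45 against pro-B (adjusted p = 0.0801) and its part was not tested.

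The other falls of FOR 49 were with proximal V and are named after their values were seen. FOR 49 with REV 125 (chr12:114809751-114823609), the first proximal V fragment, had 1934 and 1745 reads in pro-B, 702 and 1376 in MEF and, in resting B cells, 412 and 364 (-2.43 ± 0.41, adjusted p = 0.0276). FOR 49 with REV 187 (chr12:115061883-115074065) had 2097 and 1897 reads in pro-B, 1681 and 2711 in MEF and, in resting B cells, 491 and 486 (-2.22 ± 0.39, adjusted p = 0.0292). FOR 49 with REV 129 (chr12:114836439-114838819) had 426 and 374 reads in pro-B, 202 and 391 in MEF and, in resting B cells, 59 and 36 (-3.28 ± 0.61, adjusted p = 0.0316). In each of them both resting B libraries were below the other 4. REV 129 fell with the gene desert too, by 3.45 on the log2 scale (adjusted p = 0.014), and its part was not tested, whereas FOR 49 itself had a gene desert fold of -0.34 ± 0.40 against pro-B and -0.03 ± 0.40 against MEF.

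The fall of FOR 49 was spread along the V segments. Of its 35 tested member pairs 26 had a fold below 0 in resting B over pro-B (median -1.16) and 32 in resting B over MEF (median -1.26), and both resting B libraries lay below both MEF libraries in 28. In pro-B over MEF its pairs were split, with 17 below and 18 above 0. REV 48, the fragment directly next to it on the 3′ side, had 31 of 34 pairs above 0 in resting B over pro-B (median 1.44) and 29 of 34 in resting B over MEF (median 0.70). Adjoining fragments of the constant genes thus had opposite values, with gene desert folds of -0.34 and 1.44.

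Each fragment's reads were then summed over its partners, which gave 120 sums for the class. A pair's reads entered both the sum of its constant fragment and that of its V fragment, so these sums are not independent. None was called in pro-B over MEF (0% in each direction, against 1.38% higher and 0.0446% lower among all 2240 fragment sums). At an unadjusted p under 0.05 there were 2 of 25, 0 of 25 and 9 of 70. The share of all fragment sums at that p was not counted, and DESeq2 was not run on these sums. Against MEF, 11 were higher in resting B cells (9.17% against 19.2%) and 3 lower (2.5% against 12.6%). Against pro-B cells, 30 were higher (25% against 18.2%) and 3 lower (2.5% against 17.8%). With gene desert reads as library size the resting B over pro-B counts were 1 and 1, and with total reads 15 and 1. For resting B over MEF they were 4 and 0, and 6 and 0. Over pro-B the 1 rise that kept its call with gene desert reads was REV 35 with proximal V, and the other rises lost theirs. No sum was called in any comparison without resting B replicate 1 or without resting B replicate 2. Without MEF replicate 1 or 2 the counts in resting B over MEF were also 0, and those in resting B over pro-B 10 or 13 higher and 0 lower. Without pro-B replicate 1 or 2 they were 35 or 63 higher and 11 or 7 lower in resting B over pro-B, and 38 or 39 higher and 14 or 15 lower in resting B over MEF.

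Of the 25 constant fragments 9 rose and 1 fell with proximal V in resting B over pro-B, and 5 rose and 1 fell with middle V. The rises lay in all 3 zones of the constant genes. REV 35 with proximal V had 242 and 270 CPM in pro-B, 319 and 334 CPM in MEF, and 786 and 789 CPM in resting B cells. The rise was 1.62 ± 0.27 over pro-B (adjusted p = 0.00624) and 1.27 ± 0.27 over MEF (adjusted p = 0.0136). FOR 71, near the J side, had 25.4 and 24.3 CPM in pro-B, 43.1 and 34.1 CPM in MEF, and 94.6 and 87.0 CPM in resting B cells, a rise of 1.87 ± 0.29 over pro-B (adjusted p = 0.00506) and 1.23 ± 0.28 over MEF (adjusted p = 0.0183). Its gene desert folds were 0.18 and 0.05, and its call over pro-B was lost with gene desert reads as library size. The gene desert folds of REV 35 were 1.73 over pro-B (adjusted p = 0.0465) and 1.05 over MEF (adjusted p = 0.481). Their part in its rise was not tested. Both resting B libraries were above the other 4 for these fragments.

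In the middle of the constant genes REV 48 and FOR 49 moved apart. REV 48 with proximal V had 129 and 161 CPM in pro-B, 230 and 216 CPM in MEF, and 471 and 418 CPM in resting B cells, a rise of 1.62 ± 0.28 over pro-B (adjusted p = 0.00678) and 0.99 ± 0.27 over MEF (adjusted p = 0.0327). FOR 49 with proximal V had 465 and 336 CPM in pro-B, 401 and 378 CPM in MEF, and 200 and 194 CPM in resting B cells. It was lower in resting B cells by -1.02 ± 0.29 against pro-B (adjusted p = 0.0309) and -0.98 ± 0.29 against MEF (adjusted p = 0.0384). Both calls were lost with total reads as library size (-0.71, adjusted p = 0.371; -0.75, adjusted p = 0.348) and with gene desert reads (-0.68, adjusted p = 0.556; -0.51, adjusted p = 0.647). The rise of REV 48 over pro-B also lost its call with gene desert reads as library size. Its gene desert fold over pro-B was 1.44, not past the threshold.

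With middle V, REV 37 and REV 39, which lie within the 3′ zone, were the named fragments. REV 37 had 93.3 and 163 CPM in pro-B, 147 and 133 CPM in MEF, and 355 and 417 CPM in resting B cells, a rise of 1.47 ± 0.34 over MEF (adjusted p = 0.0194) and 1.59 ± 0.34 over pro-B (adjusted p = 0.0131). Its gene desert folds were 0.32 and 0.94 in the same order, neither past the threshold. REV 39, a fragment of 12 kb, had 91 and 170 CPM in pro-B, 115 and 104 CPM in MEF, and 54.5 and 53.6 CPM in resting B cells, lower by -1.27 ± 0.34 against pro-B (adjusted p = 0.0271) and with a fold of -1.01 ± 0.34 against MEF that missed the threshold (adjusted p = 0.0579). Of the 25 constant fragments 22 had the same sign of fold with proximal and with middle V in resting B over pro-B, 16 of them above 0 and 6 below, and the numbers were the same in resting B over MEF. In pro-B over MEF 21 had the same sign, 3 above and 18 below.

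**Figure D5:**
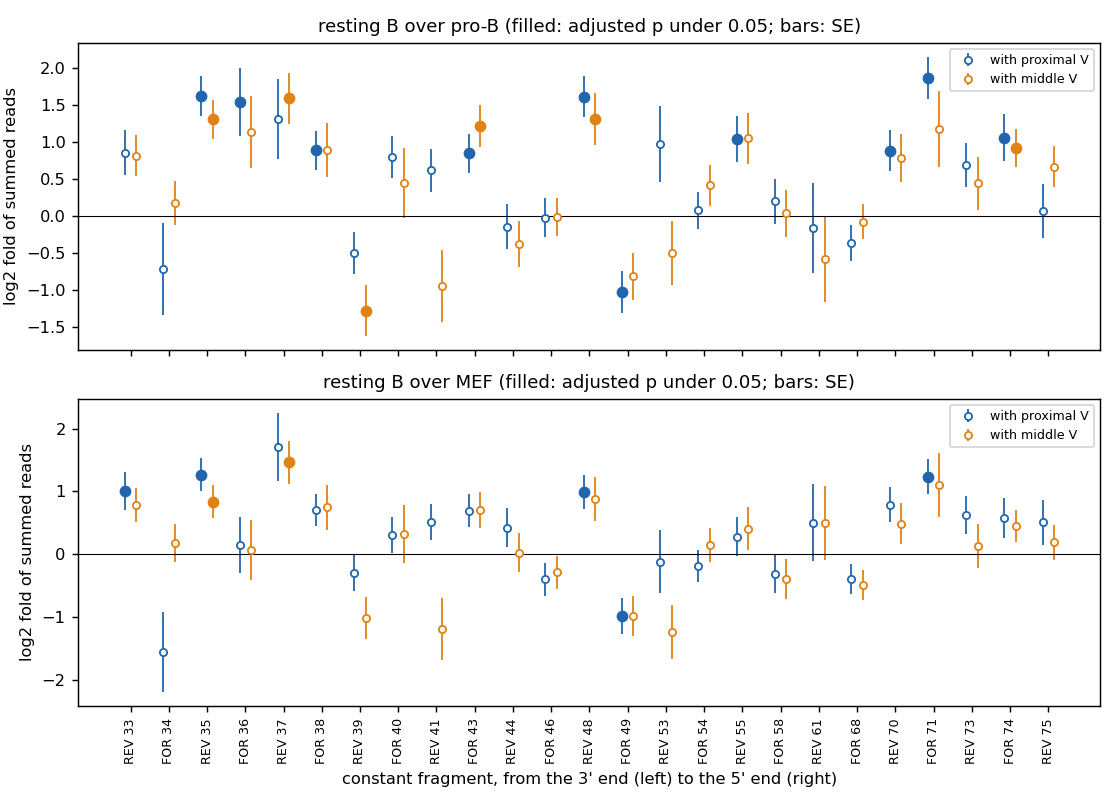
Log2 fold of summed reads (vertical axis) of the 25 constant fragments in order from the 3′ end (left) to the J side (right), with proximal V in blue and middle V in orange, for resting B over pro-B (top) and over MEF (bottom). Bars are SE and filled points passed the test; FOR 49 and REV 39 lie below 0 in both panels, and REV 48, next to FOR 49, lies above it.

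Among the 70 V fragments, 16 were called higher with the constant genes over pro-B and 5 over MEF, and those named by rule are given. The named rises were mostly in the far zone of middle V, which held 33 of the V fragments. REV 326 (chr12:115578210-115579441) had 27.2 and 38.4 CPM in pro-B, 39.4 and 41.7 CPM in MEF, and 110 and 92.5 CPM in resting B cells, a rise of 1.62 ± 0.30 over pro-B (adjusted p = 0.00842) and 1.32 ± 0.30 over MEF (adjusted p = 0.0178). FOR 346 had 50.9 and 107 CPM in pro-B, 94.2 and 87.3 CPM in MEF, and 260 and 299 CPM in resting B cells, a rise of 1.82 ± 0.38 over pro-B (adjusted p = 0.0123) and 1.62 ± 0.38 over MEF (adjusted p = 0.0199). All 13 tested pairs of FOR 346 had a fold above 0 in resting B over MEF. REV 357 (chr12:115668148-115671981) had 43.4 and 39.1 CPM in pro-B, 67.5 and 76.9 CPM in MEF, and 95.8 and 107 CPM in resting B cells. It rose over pro-B (1.30 ± 0.26, adjusted p = 0.00988), and its fold of 0.49 ± 0.25 over MEF missed the threshold (adjusted p = 0.168). The rises of REV 326, FOR 346 and REV 357 over pro-B lost their calls with gene desert reads as library size. Their gene desert folds over pro-B were 1.02, 0.14 and 0.83, none past the threshold, and the part of these was not tested.

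In proximal V, FOR 130 (chr12:114838820-114840677) rose and REV 187 fell. FOR 130 had 195 and 274 CPM in pro-B, 206 and 223 CPM in MEF, and 520 and 420 CPM in resting B cells (1.13 ± 0.30 over MEF, adjusted p = 0.0294). REV 187 had 320 and 250 CPM in pro-B, 340 and 360 CPM in MEF, and 177 and 160 CPM in resting B cells (-1.06 ± 0.27 against MEF, adjusted p = 0.0273). In near middle V, REV 260 had 108 and 111 CPM in pro-B, 121 and 117 CPM in MEF, and 54.2 and 66.8 CPM in resting B cells, lower against MEF (-0.97 ± 0.25, adjusted p = 0.0264) and against pro-B (-0.86 ± 0.25, adjusted p = 0.0352). FOR 49 was a partner in the called pairs of both REV 187 and REV 260. Like those of FOR 49, the called falls of the summed reads of REV 39, REV 187 and REV 260 kept their direction and lost the call with total reads (adjusted p from 0.177 to 0.487) and with gene desert reads (from 0.329 to 0.687).

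Fragment length and general reactivity varied with these folds. Over the 25 constant fragments, Spearman's rho between length and the resting B over MEF fold was -0.54 with proximal V and -0.47 with middle V, and over the 70 V fragments -0.35. Against pro-B cells it was -0.41, -0.37 and -0.22, and in pro-B over MEF it was between -0.06 and 0.06. Between a fragment's fold in the class and its gene desert fold, rho was 0.37, 0.32 and 0.34 in resting B over MEF and 0.24, 0.28 and 0.39 in resting B over pro-B. These are descriptions across fragments that share libraries and partners, and the part of length or reactivity in the folds was not tested. With the gene desert, 2 constant fragments rose in resting B over pro-B (2.67% of all 225 Igh fragments rose) and 1 proximal V and 3 middle V fragments fell (6.22%), and against MEF 1 proximal V fragment, REV 129, fell (0.444%).

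In pro-B over MEF, where no pair passed, the pairs of smallest p among those whose libraries lay apart are given as values. FOR 329 with REV 37, 1086 kb apart, had 57 and 323 reads in pro-B, 25 and 31 in MEF and, in resting B cells, 749 and 422 (2.71 ± 0.82, adjusted p = 0.433). FOR 71 with REV 125 had 82 and 228 reads in pro-B, 22 and 29 in MEF and, in resting B cells, 195 and 158 (2.61 ± 0.79, adjusted p = 0.433). FOR 58 with REV 292 had 29 and 354 reads in pro-B against 25 and 20 in MEF (2.93 ± 1.20, adjusted p = 0.523), so that replicate 2 carried most of the pro-B reads. On the lower side stood FOR 174 with REV 48 and FOR 216 with REV 37, whose reads are given with the rises, and FOR 40 with REV 235, which had 104 and 244 reads in pro-B, 420 and 1041 in MEF and, in resting B cells, 575 and 640 (-1.94 ± 0.52, adjusted p = 0.401). The missed threshold does not show that pro-B cells and MEF were alike, since for the region sums an SE of 0.25 with 2 libraries a group leaves wide intervals.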

How the data were processed

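The authors deposited 1 table of read counts per 5C primer pair for each of the 6 libraries; per the file headers reads were 42 bases long, and per the submitters' processing notes they were aligned with Novoalign to mm9. The deposited counts were used raw, with unlisted pairs as 0. They carry no molecular identifiers, so PCR copies cannot be told apart from contacts. Pair counts and sums over fragments, zones and regions were fitted with edgeR 4.0.16 (R 4.3.3): TMM scaling, quasi-likelihood test, Benjamini-Hochberg adjustment over each whole table, groups from the sample titles. An SE is the fold divided by the root of the F statistic. The script was tested on simulated data. Named items were, per comparison and direction, up to 6 called pairs in order of p, each fragment used once, with no overlap between the groups' libraries (3 of smallest p where none was called), the 3 pairs of highest mean CPM per cell type, loops, up to 3 called fragment sums per side, and all zone and region sums. Members, zones and lists were chosen with earlier results of these data known. Alternatives were other scalings, filters, sample sets and tests (DESeq2 1.42.0, limma 3.58.1), and fragment and zone sums were added after seeing the data. P-values measure the spread between libraries only. Replicates 1 of different cell types did not deviate together (correlations -0.03, 0.09 and 0.01), so the numbers were not taken as pairs. No sequence was printed, since no mm9 genome was used here.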

Additional observations from a re-analysis of the deposited data

How the results depend on the processing

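With total reads as library size, 2 member pairs were called lower in resting B over pro-B (3.40% of all Igh pairs). The fragment sums called were 1 higher in pro-B over MEF and 6 higher and 0 lower in resting B over MEF. In resting B over pro-B they were 15 and 1. Shares over all fragment sums were not counted under this or the other alternatives. Gene desert reads as library size moved the median of all Igh pairs to 0.19, 0.45 and 0.29. No member was then called lower in resting B over MEF (0.536% of all Igh pairs). In resting B over pro-B 20 were higher and 2 lower (3.82% and 2.92% of all Igh pairs). The fragment sums called were 1, then 4 and 0, then 1 and 1. The pro-B over MEF sums turned to 0.28 (proximal V) and 0.14 (middle V) there, to 0.48 and 0.53 after the distance offset, and for proximal V to 0.072 with the 4 compared libraries only and 0.015 with DESeq2. With at least 50 reads, 2 pairs were lower in resting B over MEF (0.882% of all Igh pairs) and 11 in resting B over pro-B (8.25% of all Igh pairs). With the 4 compared libraries only, resting B over MEF gave 68 and 39 pairs (14.0% and 14.5% of all Igh pairs) and 37 and 15 fragment sums. Resting B over pro-B gave 0 and 0 pairs (0% of all Igh pairs in each direction) and 12 and 0 fragment sums. DESeq2 called 2 and 10 pairs in pro-B over MEF (1.40% and 1.17% of all Igh pairs), 20 and 18 in resting B over MEF (6.39% and 7.46%), and 87 and 24 in resting B over pro-B (11% and 13.4%), which held all 13 and all 5 of edgeR's, and sums of 0.53 (proximal V, resting B over MEF), 0.52 and 0.43 (proximal and middle V, resting B over pro-B) passed. Counting each pair once with limma, -0.45 and -0.38 in pro-B over MEF and 0.53 and 0.56 in resting B over pro-B passed, and without the 5 pairs of most reads 0.60 passed for proximal V in resting B over pro-B. The causes were not tested.

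With the replicate number as a block, no pair was called lower in resting B over MEF (0.0503% of all Igh pairs). In resting B over pro-B 1 was higher and 1 lower (0.561% and 1.71% of all Igh pairs). Fragment sums were at 8 and 2 and at 24 and 2, and the block changed no call of a region sum. Leaving out pro-B replicate 1 kept 1 pro-B library and lowered the pro-B over MEF folds of the whole locus. The median of all Igh pairs was then -0.18, against 0.03 with all 6 libraries. That of the members was -0.45, against -0.39. The highest counts of pairs in pro-B over MEF, given next, come from this fit. Leaving out 1 library gave 0 to 45 higher and 0 to 226 lower pairs in pro-B over MEF, 0 to 69 and 0 to 42 in resting B over MEF, and 0 to 260 and 0 to 59 in resting B over pro-B. Fragment sums ranged over 0 to 8 and 0 to 14, 0 to 39 and 0 to 15, and 0 to 63 and 0 to 11. Proximal V sums ranged from -0.24 to 0.19, 0.36 to 0.57 and 0.27 to 0.70, and middle V sums from -0.42 to 0.061, 0.14 to 0.32 and 0.16 to 0.64, in the same order of comparisons. Without pro-B replicate 2, proximal V passed in resting B over MEF (0.46) and over pro-B (0.70), as did middle V over pro-B (0.64), and without pro-B replicate 1 or MEF replicate 1 the proximal V sum in pro-B over MEF turned to 0.19 or 0.092. Of the named pairs and fragment sums none reversed its direction under any alternative run. Of these 27 pairs and sums 18 lost the call with gene desert reads and 10 with total reads. With the 4 compared libraries only 11 lost it, and with the replicate block 9. Calls were also lost where a resting B or a MEF library was left out. Depth limits the rises from 0 to 4 reads, whose folds are bounds or wide.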
